A study of Mus musculus with 2 samples.

Results

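The mid-lobular hepatocytes described here were 5337 of 26683 hepatocytes, chosen by where each cell fell on a portal-to-central score. A hepatocyte was a cell with 2000 to 10000 genes detected, at most 100000 unique molecular identifiers (UMIs, the counted RNA molecules), at most 5% mitochondrial UMIs and at most 2 UMIs summed over Ptprc, Pecam1 and Dcn, which mark leukocytes, endothelial cells and fibroblastic cells. The score was log2 of the summed UMIs of Cyp2e1, Oat, Glul and Gulo plus 1 over those of Cyp2f2, Hal, Sds and Aldh1b1 plus 1, so it is high in cells from around the central vein and low in cells from around the portal tract. Both libraries were ranked together, and the cells above the 40th and up to the 60th percentile, with scores above -0.83 and up to 1.12, formed the mid-lobular window. The window is a range on a continuous score and not a cell type. Every value of these 8 score genes and of the 3 filter genes Ptprc, Pecam1 and Dcn was used in the choice and is a description only.

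Hepatocytes divide their work along the short path from the portal tract to the central vein. Urea synthesis and gluconeogenesis sit mainly at the portal side, while glutamine synthesis, xenobiotic metabolism and bile acid synthesis sit mainly at the central side. The cells between are known for hepcidin, the peptide hormone that lowers iron export from cells, for the IGF-binding protein Igfbp2 and for the sterol 12-alpha-hydroxylase Cyp8b1, and they supply many of the new hepatocytes in the undamaged liver. Carbon tetrachloride (CCl4) is activated by Cyp2e1 and injures the central side most.

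The study asked how hepatocytes that switch on p16, a cell cycle inhibitor tied to senescence, differ from the other hepatocytes of a fibrotic liver. Male p16-Tom mice carried a tamoxifen-inducible Cre recombinase under p16 control (p16-CreERT2) and a tdTomato reporter that Cre switches on (R26-CAG-LSL-tdTomato-WPRE), both heterozygous on a C57BL/6 background. All received CCl4 for 4 weeks and tamoxifen, and fixed liver cells were sorted on a nuclear and a mitochondrial dye and then as Tom- (p16low) or Tom+ (p16high). Each group was 1 library of 10x Genomics Flex probes, with 23220 barcodes and 681279005 UMIs for Tom- and 16339 barcodes and 715333889 UMIs for Tom+. Age and the number of mice were not stated in the sources used here, and the Tom+ label is a record that p16-driven Cre was active while tamoxifen was present, not of p16 at collection. With 1 library per group no difference between Tom- and Tom+ has a replicate check, no p-value is given, and the intervals below cover counting error only, at the 95% level.

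The hepcidin genes Hamp and Hamp2 are neighbouring paralogs and supply 2 of the 4 expected mid-lobular markers, so the sequence just upstream of each is shown. In mm10, Hamp lies at chr7:30942368-30944032 and Hamp2 at chr7:30922372-30924681, both protein-coding and on the minus strand, and an annotated long noncoding RNA on the plus strand spans both. The 250 bases upstream of the RefSeq start are at chr7:30944030-30944279 for Hamp and chr7:30924182-30924431 for Hamp2 (RefSeq, GRCm38.p6, minus strand, written 5′ to 3′), the second within an intron of a longer annotated Hamp2 transcript. Capitals mark GGCGCC, the core of the BMP response element through which iron raises hepcidin, and TTCNNNGAA, the core letters bound by STAT factors, through which IL-6 raises it.
Hamp: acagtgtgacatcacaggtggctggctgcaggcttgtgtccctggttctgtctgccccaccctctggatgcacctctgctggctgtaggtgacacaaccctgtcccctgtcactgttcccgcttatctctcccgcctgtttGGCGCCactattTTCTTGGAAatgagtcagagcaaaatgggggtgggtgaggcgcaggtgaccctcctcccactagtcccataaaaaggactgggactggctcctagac
Hamp2: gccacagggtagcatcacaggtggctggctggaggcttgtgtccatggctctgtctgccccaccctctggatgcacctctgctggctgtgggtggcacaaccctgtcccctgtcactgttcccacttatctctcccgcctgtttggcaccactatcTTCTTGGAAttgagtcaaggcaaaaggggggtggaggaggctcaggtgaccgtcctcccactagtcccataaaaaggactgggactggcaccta
The windows were identical at 227 of 253 aligned positions (89.7%). Hamp held GGCGCC at 109 to 104 bases before the start and Hamp2 held no match on either strand, while both held TTCTTGGAA, at 97 to 89 and 94 to 86 bases. Of 32851 promoter windows of the same length, 9.59% held GGCGCC and 7.02% held TTCNNNGAA. A match is a description of the letters, and the 2 motifs do not overlap each other here.

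The window held 4334 of 16083 Tom- hepatocytes (26.9%, interval 26.3 to 27.6%) and 1003 of 10600 Tom+ hepatocytes (9.46%, 8.91 to 10.0%). The rule fixes the share over both libraries, so the difference between the libraries describes how each was spread over the score. Dividing the ranking into 5 classes of equal size gave the window as class 3, and from class 1 (most portal) to class 5 (most central) the Tom- shares were 25.2%, 22.4%, 26.9%, 17.7% and 7.73%, and the Tom+ shares 12.2%, 16.3%, 9.46%, 23.5% and 38.6%. In steps of 0.25 of the score, the Tom- distribution had a local peak inside the window (4.68% of its cells) beside one on the portal side (4.72%). The Tom+ distribution was low from the portal side of the window, where its lowest step held 0.736%, into the window, where its steps held about 1.0 to 1.5%.

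**Figure D1:**
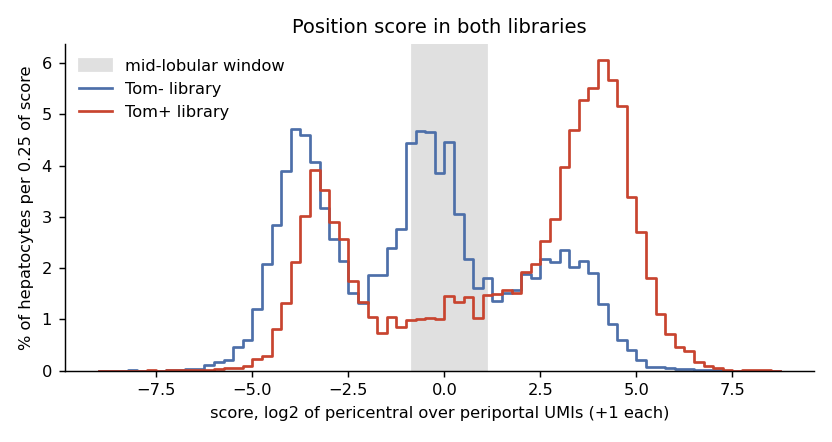
Share of each library's hepatocytes (y axis, percent per 0.25 of score) over the score (x axis, log2 of pericentral over periportal UMIs with 1 added to each), with the mid-lobular window shaded. The Tom- line has a local peak inside the window, which holds 26.9% of its cells, and a like one on the portal side, and the Tom+ line is low in the window (9.46% of its cells) and just portal of it.

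Members of the 2 libraries differed in depth, and Tom- members were shallower than Tom- cells of the other classes. Tom- members had a median of 14750 UMIs and 4006 genes, against 33281 UMIs in class 1 and 32480 in class 5 of the Tom- library. Tom+ members had a median of 31742 UMIs and 5617 genes, against 41504.5 UMIs in class 1, 28425 in class 4 and 34463.5 in class 5 of the Tom+ library. The median member held 23 pericentral and 24 periportal score UMIs in Tom- and 43 and 38 in Tom+. With the class of each cell kept, members were 13.7% of the Tom- and 8.61% of the Tom+ hepatocytes of at least 20000 UMIs, so much of the Tom- excess in the window lay in shallower cells. The libraries shared 503 barcodes, 10 of them members in both, and without shared barcodes the shares were 26.9% and 9.42%.

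Summed over cell types, marker genes of other liver cells were highest in the window. Summed CPM (UMIs per 1000000 summed UMIs) of 29 marker genes of endothelial, stellate and fibroblast, macrophage, leukocyte and cholangiocyte cells was 360 in Tom- members, against 180 and 155 at the portal and central ends (classes 1 and 5), and 230 in Tom+ members, against 132 and 125. The 29 include the 3 filter genes, whose limit of 2 UMIs admits a higher CPM in a shallow cell. Without those 3 the sums were 328 in Tom- members, against 165 and 139, and 211 in Tom+ members, against 121 and 111. Macrophage markers made up 151 CPM of the Tom- and 93.1 CPM of the Tom+ total, endothelial markers, Pecam1 included, 126 and 80.6 CPM, and leukocyte markers, Ptprc included, 8.53 and 3.61 CPM. Stellate and fibroblast markers were 64.1 CPM in Tom- members and 38.8 CPM in Tom+ members, the latter just under the 39.5 CPM of class 4, and cholangiocyte markers 11.1 CPM in Tom- members, under the 12.5 CPM of class 1, and 13.8 CPM in Tom+ members. The 29 together passed 500 CPM in 1320 Tom- members (30.5%) and in 168 Tom+ members (16.7%). Albumin, the main secretory product of hepatocytes, was 118521 and 122859 CPM in Tom- and Tom+ members. Doublets were neither called nor removed here. Because depth and these markers move with the window, results are also given for members with at least 20000 UMIs and at most 500 CPM of other-cell markers, called deep clean members: 1210 Tom- and 658 Tom+ cells.

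**Figure D2:**
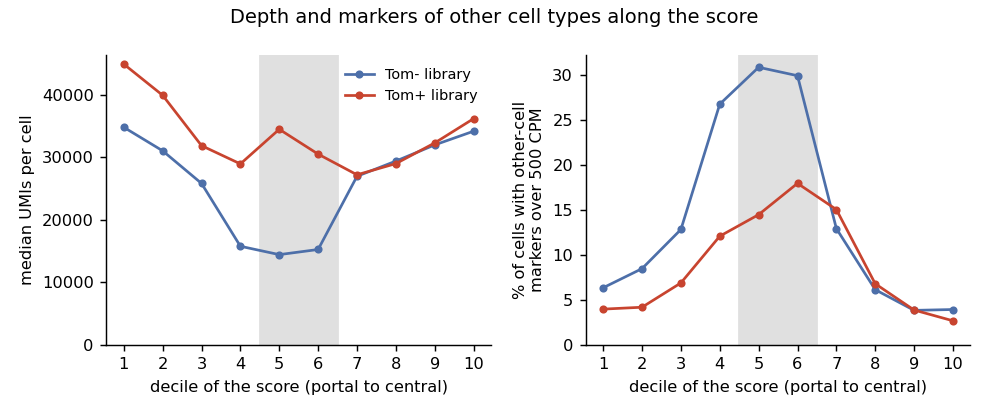
Median UMIs per cell (left) and percent of cells whose markers of other cell types sum to more than 500 CPM (right) in each decile of the score from portal (1) to central (10), per library, with the mid-lobular window shaded. Tom- cells are shallowest in and beside the window, and the percent over 500 CPM is highest there in both libraries.

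The 4 expected mid-lobular markers bore out the label only in part. Cyp8b1 was highest in the window in both libraries, and Hamp was highest there in Tom+ only. Hamp2 was highest in class 2, on the portal side of the window, and Igfbp2 in class 4, on its central side. In deep clean cells each gene was highest in the same class. The name mid-lobular therefore refers to the place on the score.

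Hamp encodes hepcidin. Its level over the 5 classes, from portal to central, was 114, 156, 138, 92.2 and 77.2 CPM in the Tom- library. In the Tom+ library it was 92.9, 115, 125, 111 and 102 CPM. Both libraries were above both of their ends in the window, but the Tom- level had already passed its maximum. On the log2 scale, the Tom- window was above the portal end by 0.28 (interval 0.24 to 0.31) and above the central end by 0.84 (0.78 to 0.89), and the Tom+ window by 0.43 (0.37 to 0.49) and 0.30 (0.25 to 0.35). These intervals cover counting error only, and the difference between the libraries was not tested.

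Hamp2, the neighbouring paralog, ran at 9.86, 13.7, 11.7, 6.82 and 2.53 CPM over the Tom- classes. The Tom+ classes held 10.8, 13.4, 11.96, 8.28 and 3.62 CPM. Its fall towards the central vein was steeper than that of Hamp, with the window above the central end by 2.21 (1.93 to 2.51) in Tom- and 1.72 (1.54 to 1.91) in Tom+ on the log2 scale. Against the portal end the Tom+ interval included 0 (0.15, -0.03 to 0.33). The paralogs are alike enough that probes may be shared between them, so the split of their UMIs is uncertain.

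Igfbp2, which binds insulin-like growth factors in the circulation, had the steepest portal-to-window rise of the 4 markers. The Tom- classes held 246, 369, 480, 660 and 534 CPM. The Tom+ classes held 205, 255, 410, 570 and 461 CPM. The window stood 0.96 (0.94 to 0.98) above the portal end in Tom- and 1.00 (0.96 to 1.03) in Tom+. Against the central end the log2 ratios were -0.16 (-0.18 to -0.13) and -0.17 (-0.20 to -0.14), so the window was below it in both libraries. This order turned under other definitions of the score or window: the Tom- ratio was 0.14 with every score gene weighted equally and 0.01 without Cyp2e1 and Cyp2f2 in the score, and the Tom+ ratio 0.47 with each library ranked on its own.

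Cyp8b1, which sets the share of cholic acid among bile acids, ran at 33.4, 51.8, 55.2, 48.9 and 25.2 CPM over the Tom- classes and at 57.8, 72.1, 74.5, 66.0 and 32.7 CPM over the Tom+ classes. The window was above the portal end by 0.72 (0.67 to 0.78) in Tom- and 0.37 (0.29 to 0.44) in Tom+, and above the central end by 1.13 (1.03 to 1.22) and 1.19 (1.12 to 1.25). It was the only one of the 4 at least 1.25-fold above both ends in both libraries. In Tom+ its interval in the window (71.7 to 77.4 CPM) overlapped that in class 2 (70.0 to 74.3 CPM).

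**Figure D3:**
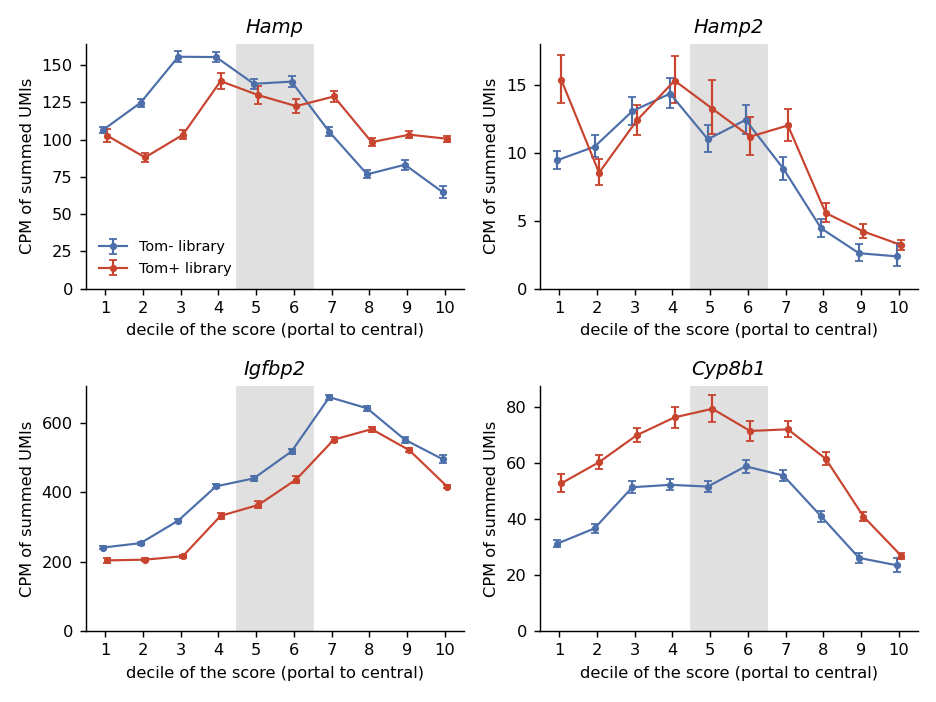
CPM of summed UMIs (y axis) of Hamp, Hamp2, Igfbp2 and Cyp8b1 in each decile of the score from portal (1) to central (10), per library, with exact Poisson 95% intervals as bars and the mid-lobular window shaded. Cyp8b1 is highest in or beside the window, Hamp2 falls on its central side, and Igfbp2 peaks on its central side.

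Genes with known zonation that the score did not use lay between the ends in the window. All 18 other periportal genes and all 17 other pericentral genes compared had a window level between the portal-end and central-end levels in each library. No share over all genes is given for this count, which is a description only. Ass1, the urea cycle enzyme that joins citrulline and aspartate, ran at 6428, 3754 and 1148 CPM from portal end through window to central end in Tom- and at 6805, 3629 and 981 CPM in Tom+. Cyp1a2, a pericentral cytochrome P450, ran at 65.3, 291 and 815 CPM in Tom- and at 83.9, 346 and 898 CPM in Tom+. Axin2, a Wnt target near the central vein, ran at 3.29, 35.7 and 167 CPM in Tom- and at 4.35, 40.6 and 153 CPM in Tom+. Median log2 ratios of window over portal end were -0.53 and -0.60 for the periportal list and 2.13 and 2.09 for the pericentral list in Tom- and Tom+. Over all genes compared these medians were 0.05 and 0.07.

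Values just inside and just outside the window limits were as follows. Among the 369 Tom- cells just below the lower limit, with scores from -1 to -0.83, Hamp was 152 CPM and Cyp8b1 43.5 CPM, and among the 473 just above it, up to -0.68, they were 158 and 54.97 CPM. At the upper limit, 358 Tom- cells just inside, from 0.78, had 134 CPM of Hamp and 556 CPM of Igfbp2, and 323 cells just outside, up to 1.47, had 135 and 612 CPM. The Tom+ library had 49 cells just below the lower limit, with Hamp at 123, Hamp2 at 6.14 and Cyp8b1 at 69.4 CPM, and 69 just above it, with 115, 16.6 and 93.2 CPM. At the upper limit it had 175 cells just inside, with Hamp at 133, Hamp2 at 6.96 and Igfbp2 at 470 CPM, and 211 just outside, with 130, 11.7 and 508 CPM. Cyp8b1 at the upper limit was 56.3 CPM just inside and 58.98 CPM just outside in Tom-, and 68.3 and 77.7 CPM in Tom+. There it was higher just outside the window in both libraries. Hamp was thus close across both limits in both libraries, and the few Tom+ cells differed most in Hamp2.

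A search was made for genes that stood out in the window. Of 7902 genes compared, with at least 10 CPM and without the score genes, 59 (0.747%) were at least 1.25-fold above both ends in both libraries and 0 (0%) were at least 1.25-fold below. The 12 with the largest weakest ratio were Fyb, Siglec1, Clec4f, Csf1r, Sod3, Mrc1, Stab1, Sdc3, Egfl7, Oasl2, Eng and H2-T24. Siglec1, Clec4f, Csf1r and Mrc1 are known from macrophages and Stab1, Egfl7 and Eng from endothelium. Of the 59, 5 were among the 29 markers of other cells. Of those compared, 3 of 3 endothelial, 2 of 3 macrophage and 0 of 2 stellate and fibroblast markers passed, beside 0.747% of all genes. The 29 are a chosen list, so 5 is not a count of all genes of other cells among the 59. Cd163, Lyz2, Ctss, Cd5l and Tyrobp, known mainly from macrophages or other myeloid cells, were also among the 59 but not among the 29. Of the 59, 29 had at least 10 CPM at both ends of both libraries, and 12 were under 10 CPM at every end and so reached the minimum only through the window. Fyb, Siglec1, Csf1r, Sod3, Stab1, Oasl2 and H2-T24, named above, were among those under 10 CPM at every end. Clec4f, the C-type lectin of mouse Kupffer cells, ran at 28.9, 73.1 and 28.9 CPM from portal end through window to central end in Tom- and at 19.9, 43.6 and 20.9 CPM in Tom+. Stab1, an endothelial and macrophage scavenger receptor, ran at 9.34, 20.1 and 7.16 CPM in Tom- and at 7.52, 13.5 and 6.42 CPM in Tom+. The summed macrophage and endothelial markers given above move with these genes, and their part in the result was not tested in cells of all depths.

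In deep clean cells, 17 of 7808 genes (0.218%) were at least 1.25-fold above both ends in both libraries and 0 (0%) were below. Of these 17, 16 were among the 59, and 51 of the 59 kept a window level above both ends in both libraries. Deep clean cells are a subset of the cells that gave the 59, so these counts are partly built in. No share over all genes is given beside the 51, so the count is a description only and no independent check. The 17 were Sult2a2, Mup10, Sod3, Marcks, Mup17, Fcna, Clec4f, Egfl7, Mt2, Mrc1, Sparc, Cyp8b1, Slc22a7, Igfbp7, Sdc3, Mt1 and Cd163, with Clec4f, Mrc1, Cd163 and Fcna known from macrophages and Egfl7 from endothelium. The 17 were named after their values were seen. Sod3, Marcks, Sparc, Igfbp7 and Sdc3 were not assigned to a cell type here. In all and in deep clean Tom- members Marcks was 47.1 and 26.1 CPM, Sdc3 76.2 and 42.5, Igfbp7 106 and 60.6, Sparc 65.7 and 45.6 and Sod3 20.9 and 13.0 CPM. How much of their RNA came from other cells was not tested. In deep clean cells Sod3 was under 10 CPM at every end and Cd163 at both Tom+ ends. There they reached the minimum level only through the window, where they are high.

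Sult2a2, Cyp8b1, Slc22a7, the major urinary proteins Mup10 and Mup17 and the metallothioneins Mt1 and Mt2 are hepatocyte genes. Sult2a2, a sulfotransferase of bile acids and steroids (chr7:13733505-13779636, plus strand, mm10), ran at 17.3, 32.2 and 14.4 CPM from portal end through window to central end in deep clean Tom- cells and at 20.9, 34.2 and 14.7 CPM in Tom+. Mt2, which binds zinc and copper, ran at 898, 1389 and 879 CPM in Tom- and at 736, 1125 and 839 CPM in Tom+. Its neighbour Mt1 ran at 532, 845 and 594 CPM in Tom- and at 516, 840 and 656 CPM in Tom+. Slc22a7, an organic anion transporter, ran at 12.7, 20.6 and 15.7 CPM in Tom- and at 15.3, 24.1 and 15.7 CPM in Tom+. In each of these the window exceeded both ends in both libraries, but over all cells Mt1, Mt2 and Slc22a7 were highest in class 4 in both libraries, with Mt2 at 1237 CPM in the window and 1342 CPM in class 4 in Tom- and at 1118 and 1216 CPM in Tom+, as was Sult2a2 in Tom-. Probes may be shared within the Mup and Mt families, which leaves the split among their members uncertain.

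**Figure D4:**
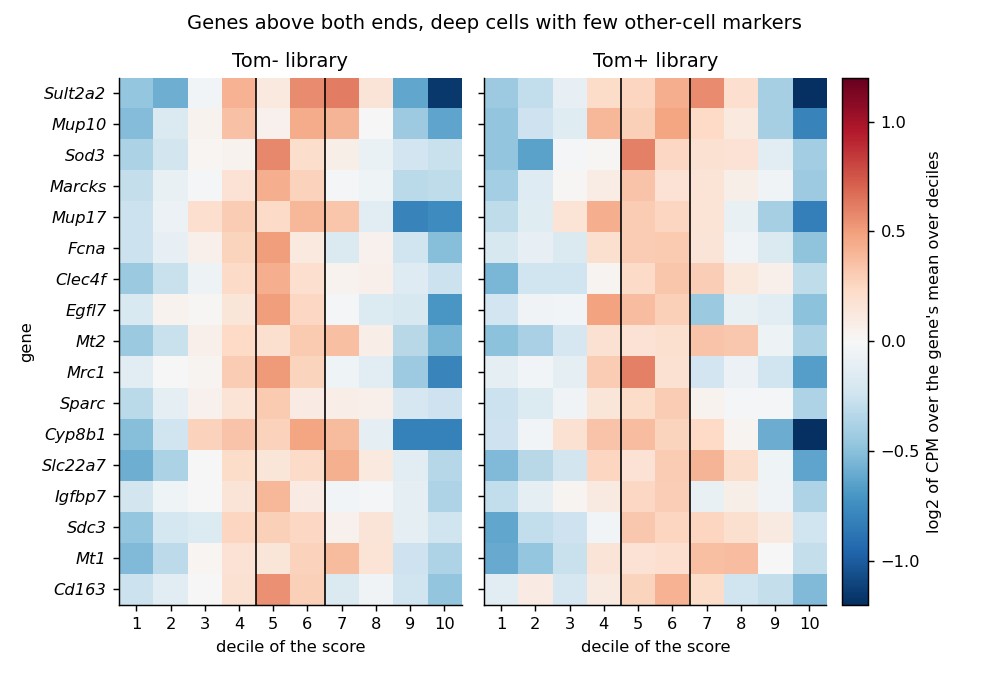
Levels of the 17 genes above both ends in deep clean cells (rows) over deciles of the score from portal (1) to central (10), per library, coloured by log2 of CPM over the gene's mean over the deciles, with lines around the window. Sult2a2, Cyp8b1, Mt1 and Mt2 stay high up to decile 7, on the central side of the window, while Sod3, Mrc1 and Cd163 of the Tom- library are highest inside it.

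Most genes of iron and hepcidin control did not stand out in the window. Of 22 compared genes of iron and hepcidin control, 2 (Bmp2 and Hmox1) were at least 1.25-fold above both ends in both libraries and 0 were below, beside 0.747% and 0% of all genes compared, and the list's median log2 ratios of window over portal and central ends were 0.10 and 0.05 in Tom- and 0.09 and -0.02 in Tom+, beside 0.05, -0.05, 0.07 and -0.09 over all genes compared. Bmp2 was under 10 CPM at every end and Hmox1 at both Tom+ ends, so there they reached the minimum level only through the window, where they are high. Tfr2, a sensor of transferrin iron, ran at 727, 756 and 738 CPM from portal end through window to central end in Tom- and at 714, 747 and 717 CPM in Tom+. Tmprss6, the protease that lowers hepcidin by cutting hemojuvelin, ran at 400, 431 and 456 CPM in Tom- and at 407, 429 and 471 CPM in Tom+. Hemojuvelin itself, the BMP co-receptor listed as Hfe2, ran at 161, 154 and 154 CPM in Tom- and at 168, 169 and 164 CPM in Tom+.

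Bmp2, the ligand that liver endothelium sends to hepatocytes to raise hepcidin, ran at 8.90, 16.8 and 7.43 CPM in Tom- and at 7.21, 11.7 and 5.65 CPM in Tom+, in the same class as the endothelial markers. Its weakest log2 ratio over an end was 0.70 in all cells and 0.32 in deep clean cells. Hmox1, the haem-degrading enzyme abundant in macrophages, ran at 9.11, 16.2 and 10.8 CPM in Tom- and at 7.05, 12.1 and 9.23 CPM in Tom+, and its weakest ratio was 0.39 in all cells and -0.01 in deep clean cells. Id1, a target of BMP signalling in hepatocytes, ran at 17.1, 18.8 and 13.4 CPM in Tom- and at 14.5, 18.2 and 16.3 CPM in Tom+.

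None of the 15 compared genes of IGF binding and the growth hormone axis was 1.25-fold above or below both ends, beside 0.747% and 0% of all genes. Igf1 fell along the score in Tom-, at 699, 641 and 374 CPM from portal end through window to central end, and in Tom+, at 884, 691 and 462 CPM. Igfals, which holds circulating IGF complexes together, ran at 331, 258 and 200 CPM in Tom- and at 298, 233 and 172 CPM in Tom+. Cish, a growth hormone-induced signalling inhibitor, ran at 21.4, 12.9 and 5.71 CPM in Tom- and at 23.2, 15.0 and 7.10 CPM in Tom+. Igfbp2 rose towards the window while these members fell, and Ghr, the growth hormone receptor, changed little, at 537, 493 and 452 CPM in Tom- and 498, 479 and 427 CPM in Tom+.

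In the bile acid list only Cyp8b1, 1 of 22, was at least 1.25-fold above both ends, beside 0.747% of all genes. Cyp7a1, the rate-limiting enzyme of the classical pathway, climbed throughout, at 21.7, 192 and 717 CPM in Tom- and at 42.7, 276 and 892 CPM in Tom+. Akr1c6 and Hsd3b7 also climbed, the latter, which acts between Cyp7a1 and Cyp8b1, at 261, 407 and 621 CPM in Tom- and at 255, 418 and 623 CPM in Tom+. Akr1d1, the steroid 5-beta-reductase, ran at 280, 277 and 279 CPM in Tom- and at 285, 299 and 313 CPM in Tom+. The bile acid receptor Nr1h4 ran at 164, 167 and 160 CPM in Tom- and at 155, 171 and 169 CPM in Tom+. Thus the window combined a high level of Cyp8b1 with a middle level of the enzymes before it.

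The list of mTOR pathway genes, 17 compared, and that of cell cycle genes, 8 compared, had 0 members 1.25-fold above or below both ends, beside 0.747% and 0% of all genes. Ccnd1, the cyclin D1 gene, rose along the score at 19.7, 44.1 and 51.7 CPM in Tom- and at 19.6, 44.7 and 59.8 CPM in Tom+.

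Within the window, the central part (decile 6 of the score) and the portal part (decile 5) differed at few genes. Of 7766 genes, 10 were at least 1.25-fold higher in the central part and 11 in the portal part in both libraries. The central part held 2013 Tom- and 651 Tom+ cells and the portal part 2321 and 352. Nr1i3, the xenobiotic sensor CAR, was 115 CPM in the portal and 149 CPM in the central part in Tom- and 117 and 157 CPM in Tom+. Gls2, the liver glutaminase, was 201 and 159 CPM in Tom- and 225 and 172 CPM in Tom+. Corin, at 19.6 and 13.3 CPM in Tom- and 22.3 and 15.0 CPM in Tom+, was also lower in the central part, and the interferon-induced Rsad2, at 13.0 and 18.5 CPM in Tom- and 8.19 and 19.3 CPM in Tom+, higher. Igfbp2 rose across the window by 0.24 (0.21 to 0.26) log2 units in Tom- and 0.27 (0.22 to 0.32) in Tom+, while the intervals for Hamp and Hamp2 included 0 in both libraries. These genes were named after their values were seen.

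From cell to cell, Igfbp2 was the most even of the markers. In deep clean members its median was 476 CPM (quartiles 346 and 628) in Tom- and 385 CPM (280 and 527) in Tom+. Hamp had a median of 97.3 CPM (quartiles 41.5 and 199) in Tom- and 79.99 CPM (35.3 and 162) in Tom+, and at least 10% of cells had none. Cyp8b1 had a median of 37.5 CPM (0 and 86.3) in Tom- and 54.5 CPM (16.8 and 116) in Tom+. Hamp2 had a median of 0 in both libraries.

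Variation beyond counting noise, measured as excess variance over the squared mean after each member was thinned to 5000 UMIs, was then compared between genes. The 4153 Tom- and 938 Tom+ members deep enough were used, 181 and 65 being too shallow. Of 5863 genes, the 8 with the highest excess were Lyz2, Cd163, Ctss, Clec4f, Cd74, Saa2, Cd5l and Tyrobp, of which only Saa2, an acute-phase apolipoprotein made by hepatocytes, is not known mainly from macrophages or other myeloid cells. In deep clean members Saa2 ranked first, with an excess of 21.6 in Tom- and 15.6 in Tom+, followed by Obp2a (12.5 and 6.07) and the glutamate transporter Slc1a2 (9.82 and 5.69). Hamp ranked 28th there, with 1.35 and 1.24, Cyp8b1 75th and Igfbp2 1519th, with 0.15 and 0.18. Albumin had 0.04 in both. Saa2 had a UMI in 2384 of 4334 Tom- members and 600 of 1003 Tom+ members, and the 10 members with the most held 24.1% and 23.7% of its UMIs.

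Shallow and deep members were compared within each library. Among 8086 genes, 263 (3.25%) were at least 2-fold higher in the 3017 Tom- members under 20000 UMIs than in the 1317 above, 353 (4.37%) in the 298 against the 705 Tom+ members, and 244 in both, while 0 were at least 2-fold lower in either. Gpnmb, a glycoprotein of lipid-laden macrophages, led at 59.9 against 5.39 CPM in Tom- and 59.4 against 5.61 CPM in Tom+. Lgals3, galectin 3 of macrophages, was 15.9 against 2.50 CPM in Tom- and 19.9 against 2.33 CPM in Tom+. Col1a1, the fibrillar collagen of activated stellate cells, was 21.5 against 4.61 CPM in Tom- and 32.0 against 4.35 CPM in Tom+. Gpnmb, Lgals3 and Col1a1 were under 10 CPM in the deep members of both libraries. They reached the minimum level only through the shallow members, where they are high. How many of the 263 and 353 genes did so was not counted. The summed other-cell markers were 579 against 217 CPM in Tom- and 746 against 182 CPM in Tom+, and without the 3 filter genes 525 against 199 CPM and 690 against 166 CPM. Endothelial, stellate and fibroblast, macrophage and leukocyte markers were each higher in the shallow members of both libraries, while cholangiocyte markers were 16.5 against 7.58 CPM in Tom- and 7.84 against 14.3 CPM in Tom+.

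Albumin and 3 of the mid-lobular markers were compared in the same way. Albumin was 113191 CPM in shallow and 122010 CPM in deep Tom- members and 106176 and 124424 CPM in Tom+. Hamp was 111 and 156 CPM in Tom- and 136 and 124 CPM in Tom+. Igfbp2 was 423 and 517 CPM in Tom- and 336 and 416 CPM in Tom+. Cyp8b1 was 54.2 and 55.8 CPM in Tom- and 57.8 and 76.0 CPM in Tom+. The part of depth in these differences was not tested.

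Tom+ and Tom- members were then compared, as sums of UMIs of all members in each library (35694550 Tom+ and 89316665 Tom- UMIs). The reporter followed the sort: tdTomato was 80.6 CPM in Tom- and 663 CPM in Tom+ members, a log2 ratio of 3.04 (3.002 to 3.08). In Tom- members it was 110 CPM in shallow and 61.6 CPM in deep cells, so the Tom- library was not free of it. Cdkn2a, the gene of p16, had 41 UMIs in Tom- and 9 in Tom+ members, 0.46 and 0.25 CPM, and the interval of its log2 ratio ran from -2.09 to 0.20. A custom p16 feature had 44 and 19 UMIs (log2 ratio 0.11, -0.75 to 0.92). At this depth no difference in p16 transcript between the groups was detectable in the window.

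Few genes differed by 2-fold. Of 7929 genes compared, the higher group at a 2-fold limit in Tom+ members held 3 (0.0378%) and the lower group 2 (0.0252%). At 1.5-fold, 13 (0.164%) were higher and 76 (0.959%) lower. The median log2 ratio over all genes was -0.01. In deep clean members, 2 of 7773 genes (0.0257%) were higher in Tom+ by 2-fold or more and 1 (0.0129%) was lower, and at 1.5-fold 40 (0.515%) were higher and 4 (0.0515%) lower. The split at 1.5-fold thus turned from mostly lower to mostly higher in Tom+ when shallow cells and cells with many other-cell markers were left out. Among the 40 were 4 mitochondrially encoded genes, mt-Co1, mt-Atp6, mt-Nd4l and mt-Atp8, with ratios of 0.98, 0.75, 0.67 and 0.59, named after their values were seen. The median mitochondrial share of members of at least 20000 UMIs was 1.26% in Tom- and 1.47% in Tom+, and its part in the split was not tested.

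The 3 genes at least 2-fold higher were Dmbt1, Dbp and Ces2c. Dmbt1 and Dbp were under 10 CPM in Tom- members and so reached the minimum level only through Tom+, where they are high. Dbp, a circadian transcription factor with D-box binding (chr7:45705088-45710203, plus strand), was 8.80 CPM in Tom- and 19.2 CPM in Tom+ members, a log2 ratio of 1.12 (0.97 to 1.27). Ces2c, a carboxylesterase (chr8:104847068-104854483, plus strand), was 11.6 and 23.5 CPM, a ratio of 1.02 (0.88 to 1.15). In deep clean members the ratios of Dbp and Ces2c were 1.10 and 1.13. Both were higher in Tom+ in every class of the score, with log2 ratios from 0.95 to 1.95 for Dbp and from 0.71 to 1.05 for Ces2c. Dmbt1, a mucosal glycoprotein of duct epithelium, was 0.16 and 29.7 CPM, but 1057 of its 1059 Tom+ UMIs came from 1 cell, with 4573 CPM of other-cell markers. Without the top cell of each library its log2 ratio was -1.38, from 13 and 2 UMIs.

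The other named genes higher in Tom+ were Cd14, Gstm3, Nat8, Per3, Rhbg, Orm3 and Lrtm1, with log2 ratios from 0.66 to 0.87. Of these, Cd14, Nat8, Rhbg and Orm3 were under 10 CPM in Tom- and so reached the minimum only through Tom+, where they are high. Gstm3, a glutathione S-transferase (chr3:107963696-107969283, minus strand), was 115 CPM in Tom- and 211 CPM in Tom+ (0.87, 0.83 to 0.91) and 1.00 log2 unit higher in deep clean Tom+ members, although related Gstm genes may share probes. Rhbg, an ammonium transporter of pericentral hepatocytes, was 6.70 and 10.8 CPM (0.68, 0.50 to 0.87). Per3, a period gene of the clock, was 12.9 and 21.0 CPM (0.70, 0.57 to 0.84). Cd14, a co-receptor for bacterial lipopolysaccharide, was 5.49 and 10.1 CPM, with 187 of 359 Tom+ UMIs in 1 cell, and its ratio without the top cell of each library was -0.07. The ratios of Gstm3, Nat8, Per3, Rhbg, Orm3 and Lrtm1 in deep clean members lay between 0.64 and 1.00.

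The 10 named genes lower in Tom+ were Gpnmb, Ifi203, Col3a1, Vim, Ifi207, C1qa, Rgl1, Oas2, Cd163 and Fos, with log2 ratios from -1.40 to -0.90. Of these, Ifi203, Vim, Ifi207, Rgl1 and Oas2 were under 10 CPM in Tom+ and reached the minimum only through Tom-, where they are high. Gpnmb was 26.9 CPM in Tom- and 10.2 CPM in Tom+ members (-1.40, -1.56 to -1.24), and its ratio was 0.06 in members of at least 20000 UMIs. Ifi203, an interferon-inducible nuclear protein, was 13.4 and 6.44 CPM (-1.06, -1.27 to -0.86) and -0.67 in the deeper members. Col3a1, C1qa and Cd163, of stromal cells and macrophages, were 23.6 and 12.1, 22.9 and 12.1, and 39.5 and 21.1 CPM, and their deep clean ratios were -0.18, -0.65 and -0.55. Over every marker in the files, whatever its level and without the filter genes, 5 of 5 endothelial, 6 of 6 stellate and fibroblast and 6 of 6 macrophage genes had a ratio below 0, with median log2 ratios of -0.57, -0.65 and -0.69. In members of at least 20000 UMIs these were 5, 6 and 5 genes, with medians of -0.30, -0.18 and -0.38. In members under 20000 UMIs the summed endothelial markers, filter genes included, were 192 CPM in Tom- and 262 CPM in Tom+. Stellate and fibroblast markers were 110 and 120 CPM there and macrophage markers 245 and 338 CPM, so each sum was higher in Tom+. Over all members, of 4 leukocyte markers 3 were below 0, and of 5 cholangiocyte markers 2. The cholangiocyte sum was 11.1 CPM in Tom- and 13.8 CPM in Tom+, with Krt19 at 0.58 and 3.73 CPM. How far this sum rests on single cells was not examined. Over all genes compared 46.6% were above 0. With every cell weighted equally, Col1a1 and Adgre1 of these lists (0.26 and 0.22) and Oas2 (0.05) were above 0. Their part in these ratios was not tested, and the depth of the libraries and the sort cannot be told apart.

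Fos, an immediate early transcription factor (chr12:85473890-85477273, plus strand), was the exception among them, since it did not shrink in deep clean members. It was 21.7 CPM in Tom- and 11.6 CPM in Tom+ members (-0.90, -1.06 to -0.75) and 21.1 and 9.51 CPM in deep clean members (-1.15), and it was lower in Tom+ in every class of the score, by ratios from -1.37 to -0.80. The other 9 compared immediate early genes had ratios from -0.17 to 0.07 and the list a median of -0.07. Jun had a ratio of 0.05, and Egr1 was 64.4 and 61.4 CPM (-0.07).

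**Figure D5:**
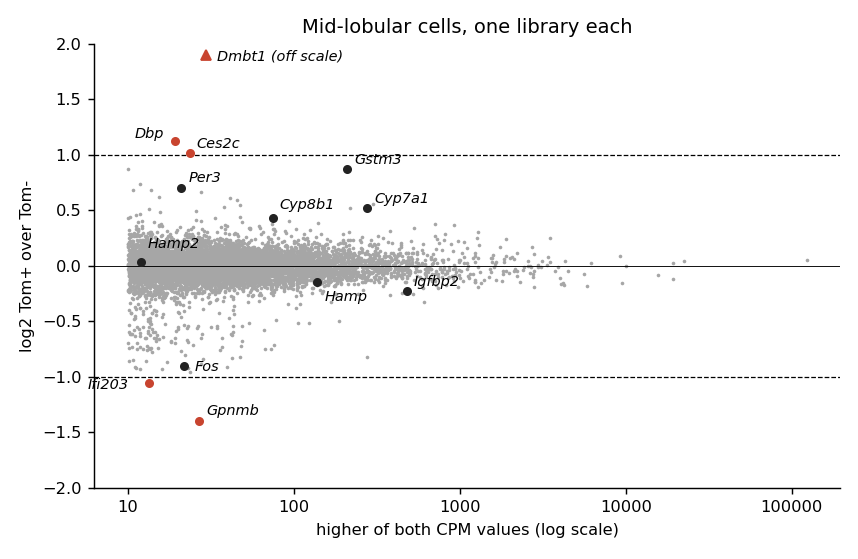
Log2 ratio of Tom+ over Tom- CPM in mid-lobular members (y axis) against the higher of both CPM values (x axis, log scale), 1 point per gene of 7929, with dashed lines at 2-fold and 1 library per group. Genes at least 2-fold apart are red, Dmbt1 (7.56) lies beyond the axis and is drawn as a triangle, and Hamp, Hamp2, Igfbp2 and Cyp8b1 are marked near 0.

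The mid-lobular markers differed between the libraries by less than 1.5-fold under the main settings. Cyp8b1 was higher in Tom+ members by 0.43 (0.36 to 0.50) on the log2 scale, Igfbp2 was lower, at -0.23 (-0.25 to -0.20), Hamp was lower, at -0.14 (-0.19 to -0.09), and Hamp2 had an interval that included 0 (0.03, -0.14 to 0.19). Deep clean ratios were 0.43, -0.32, -0.36 and -0.02. The Igfbp2 ratio was 0.39 with each library ranked on its own. The Hamp2 ratio ran from -0.60 to 0.33 over the alternatives, so its lowest value was past 1.5-fold. The Hamp ratio was above 0 under 5 alternatives, from 0.02 without Cyp2e1 and Cyp2f2 in the score to 0.15 over cells thinned to 5000 UMIs. Over the 5 classes Cyp8b1 was higher in Tom+ throughout, at 0.37 to 0.79, and Igfbp2 lower throughout, at -0.53 to -0.21. Hamp was lower in Tom+ in the 3 classes up to the window and higher in the 2 beyond it.

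Of the 22 compared iron and hepcidin genes, 0 passed 1.5-fold in either direction, beside 0.164% of all genes higher and 0.959% lower, 6 had a ratio above 0 and the median log2 ratio was -0.04, beside a median of -0.01 and 46.6% of genes above 0 over all genes compared. Fth1, the ferritin heavy chain, was 1066 CPM in Tom- and 1268 CPM in Tom+ (0.25), Slc40a1, the iron exporter ferroportin, 161 and 144 CPM (-0.16), and Trf, transferrin, 18841 and 19141 CPM (0.02). Bmp2 and Hmox1 had ratios of -0.52 and -0.43, and of 0.03 and 0.14 with every cell weighted equally. Of the 15 IGF and growth hormone genes, 0 passed 1.5-fold, beside 0.164% of all genes higher and 0.959% lower, and the median was -0.04. Igf1 was 641 and 691 CPM (0.11) and Irs2, the insulin receptor substrate, 72.4 and 61.0 CPM (-0.25).

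In the bile acid list 16 of 22 genes had a ratio above 0, beside 46.6% of all genes, 0 passed 1.5-fold, beside 0.164% of all genes higher and 0.959% lower, and the median was 0.04. Cyp7a1 was 192 CPM in Tom- and 276 CPM in Tom+ (0.52), Scp2, a sterol carrier, 833 and 974 CPM (0.23), and Nr0b2, the repressor of Cyp7a1 known as SHP, 110 and 86.3 CPM (-0.34). In deep clean members the ratios of Cyp7a1 and Nr0b2 were 0.68 and -0.37. The median score was 0.22 in Tom+ and -0.11 in Tom- members, and the Cyp7a1 ratio was 0.46 when members were matched by narrow slices of the score and 0.98 in class 1.

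Of the other pericentral genes, not in the score, 16 of 17 had a ratio above 0, beside 46.6% of all genes, with a median of 0.16, 0.12 when Tom- and Tom+ members were matched by narrow slices of the score, and 0.17 in deep clean members. Over the alternatives it ran from 0.03 with every score gene weighted equally to 0.96 with each library ranked on its own. Cyp1a2 was 291 and 346 CPM (0.25), Slc1a2 26.2 and 37.7 CPM (0.53), and Cyp2c37 was the one below 0, at 61.3 and 49.3 CPM (-0.31). The 18 other periportal genes had a median of -0.05, with 7 above 0, beside 46.6% of all genes. Over the alternatives the periportal median ran from -0.71 to -0.006. The 4 pericentral and 4 periportal score genes, which the rule used, had medians of 0.39 and -0.02.

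Of 13 NRF2 and glutathione genes 11 had a ratio above 0, beside 46.6% of all genes, and the median was 0.19, with 1, Gstm3, past 1.5-fold, beside 0.164% of all genes. Over the alternatives this median ran from 0.02 without members with 3 or more UMIs of Dbp and Per3 to 0.57 with each library ranked on its own. When members were matched by narrow slices of the score it was 0.20. The list itself rose along the score, with median log2 ratios of window over portal and central ends of 0.67 and -0.55 in Tom- and 0.66 and -0.50 in Tom+. Gstm3 was also among the other pericentral genes. Gstm1 was 202 and 298 CPM (0.56), Gstm2 70.5 and 93.1 CPM (0.40) and Gsta3 1597 and 1894 CPM (0.25), while Nqo1, Gclc and Txnrd1, targets of NRF2 that are not glutathione transferases, had ratios of 0.01, -0.03 and 0.02, and Hmox1, also a target and in this list, had -0.43. Of 18 genes of cholesterol synthesis and uptake, 15 had a ratio above 0, again beside 46.6%, and the median was 0.10 (0.05 in deep clean members), with 0 past 1.5-fold beside 0.164% and 0.959%. Lss, lanosterol synthase, was 49.5 and 62.6 CPM (0.34).

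Of 10 compared clock genes of the repressor phase, 1 (Dbp) passed 2-fold and 2 (Dbp and Per3) 1.5-fold, beside 0.0378% and 0.164% of all genes, with a median of 0.10. Dbp reached the minimum level only through Tom+, where it is high. Tef, like Dbp a D-box factor, was 66.8 and 79.8 CPM (0.26), Per2 22.9 and 25.2 CPM (0.14) and Per1 150 and 128 CPM (-0.23). Of 6 genes of the activator phase 1 had a ratio above 0, beside 46.6% of all genes, the median was -0.07, and Npas2 was 14.7 and 11.1 CPM (-0.40).

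The p53 targets and cell cycle inhibitors had a median of -0.01 over 15 genes, with 0 past 1.5-fold, beside 0.164% of all genes higher and 0.959% lower. Of these 15, 7 had a ratio above 0, beside 46.6% of all genes. Cdkn1a, the p21 inhibitor, was 105 CPM in Tom- and 91.7 CPM in Tom+ members (-0.20, -0.25 to -0.14), Gdf15 654 and 649 CPM and Mdm2 had a ratio of 0.13. Cdkn1c, another cell cycle inhibitor, was higher in Tom+ members, with a ratio of 0.24 that ran from 0.11 to 1.07 over the alternatives. Medians were 0.02 over 7 cell cycle, -0.03 over 17 mTOR, 0.00 over 18 fatty acid and 0.00 over 3 LIF receptor genes, each with 0 past 1.5-fold beside the same shares. Ccnd1 was 44.1 and 44.7 CPM (0.02, -0.06 to 0.11). The 14 interferon response genes had a median of -0.15, with 2 above 0 beside 46.6% of all genes, and of 0.00 in deep clean members, and the 17 acute-phase genes a median of -0.05, with Orm3 (0.68) and Saa3 (-0.81) past 1.5-fold, beside 0.164% higher and 0.959% lower over all genes. Orm3 reached the minimum level only through Tom+, where it is high, and with each library ranked on its own Saa3 had 0.51.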

How the data were processed

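Fixed hepatocytes of 2 sorted groups were profiled with 10x Genomics Flex, 1 library per group. The authors deposited UMI counts per gene and cell, made with Cell Ranger 7.2.0 on mm10 according to the submitters' processing notes. Probe hybridisation counts only what the probe set targets, so paralogs may share signal, and levels were not compared between genes. The files held 19073 features, including 3 custom ones. No library is replicated, so precision is given as exact Poisson (CPM), Clopper-Pearson (shares) and conditional binomial (ratios) 95% intervals, covering counting error only.

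Cells were filtered, scored and ranked as described above, and UMIs were summed per library and score class. Log2 ratios used CPM of the sums with 0.5 UMIs added for the counts of genes, and genes needed 10 CPM in either sum and 20 UMIs over both. The text named the 10 highest and 10 lowest Tom+ over Tom- ratios, the 12 genes highest in the window, the 8 most variable genes, the markers and up to 4 genes per list. Further genes are said to have been chosen after their values were seen, as were the list members given as context along the score. The Tom+ over Tom- comparison also gave list members outside the rule of up to 4 per list, such as Gdf15, Mdm2 and Trf. Members and lists were chosen with earlier results of these data known. No doublets were called. Thinning used seed 1. The scripts were tested on simulated counts. Python 3.11.15, numpy 2.4.6, scipy 1.17.1, pandas 2.3.3 and matplotlib 3.10.9 were used. Alternatives varied the filters, score, window, scaling, fold and minimum level, and 3 on depth and other-cell markers were chosen after seeing the data.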

Additional observations from a re-analysis of the deposited data

Results flagged for a closer look

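With the score divided into 5 classes of equal size, the window being class 3, some Tom+ over Tom- ratios had opposite signs in the window and further along the score. Hamp had a log2 ratio of -0.14 (interval -0.19 to -0.09) in the window, 0.27 (0.23 to 0.31) in class 4 and 0.40 (0.34 to 0.45) in class 5, but the window ratio was above 0 under 5 alternatives, from 0.02 to 0.15. Gpnmb had -1.40 in the window, 0.29 in class 4 and 0.50 in class 5, and 0.06 in window cells of at least 20000 UMIs. Cd14 had 0.87 in the window and -0.36 in class 4, and -0.07 in the window without the top cell of each library. Cyp8b1 was higher in the central than in the portal part of the window in Tom- (0.19, 0.11 to 0.27) and lower in Tom+ (-0.15, -0.26 to -0.04). With 1 library per group these differences were not tested.

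A custom feature outside the gene comparison, the LINE-1 subfamily L1Md_A, was 2978 CPM in Tom- and 3277 CPM in Tom+ members, a log2 ratio of 0.14 (0.13 to 0.15).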

How the results depend on the processing

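No paired analysis was possible because Tom- and Tom+ were sequenced as 1 library apiece. Each result was recomputed under up to 21 alternatives. tdTomato was higher in Tom+ members under all 18 run for it, the 10 marker ratios past 1.25-fold kept their direction in 180 of 180 recomputations and all 16 marker ratios in 283 of 288, and the 5 genes past 2-fold in 81 of 90 and all 95 named genes in 1626 of 1710. The 9 reversals among those past 2-fold were Dmbt1 in 7, whose UMIs come from 1 cell, at -0.70 with a limit of 0 UMIs on Ptprc, Pecam1 and Dcn, -0.68 with narrower limits on genes per cell, -0.14 with percentiles 45 to 55, -0.44 with each library ranked on its own, -0.15 with every score gene weighted equally, -1.52 without members with 3 or more UMIs of Dbp and Per3 and -1.05 with other-cell markers at most 500 CPM, and Gpnmb in 2, at 0.059 in members of at least 20000 UMIs and 0.14 when both added limits were set. Gene list medians kept their sign in 326 of 378 recomputations.

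The 2-fold counts (3 higher and 2 lower in Tom+), the 59 genes above both ends, the window shares and the tdTomato ratio moved as follows, and apart from the changes in cells or genes that the settings themselves make, the cause was not tested. With a limit of 0 UMIs on Ptprc, Pecam1 and Dcn, 11 genes were lower and the Tom+ share was 8.86%, and with no such limit 1 was lower, 134 were above both ends, the Tom- and Tom+ shares were 25.9% and 11.1% and tdTomato 3.09. With narrower limits on genes per cell, 1 was higher, 6 lower, 34 above both ends, the Tom+ share 10.1% and tdTomato 3.09. Percentiles 45 to 55 gave 9 lower, shares of 13.8% and 4.18% and tdTomato 2.99, and percentiles 33 to 67 gave 0 lower, 43.6%, 19.6% and 3.10. Ranking each library on its own gave 35 higher, 83 lower, 24 above both ends, shares of 20.0% and 20.0% and tdTomato 3.31. Scores from cells thinned to 5000 UMIs gave 5 lower, 37 above both ends and tdTomato 3.08. Weighting score genes equally gave 1 higher and 1 below both ends, and leaving Cyp2e1 and Cyp2f2 out of the score 1 higher and 8 lower. Without the 10 percent of cells with the most UMIs, 95 genes were above both ends and tdTomato was 2.91. Means over cells gave 1 lower, 165 above both ends and 2.79, and sums over cells thinned to 5000 UMIs 28 lower, 107 above both ends and 2.83. A minimum of 50 CPM gave 0 higher, 0 lower and 8 above both ends, and no CPM minimum 95 higher, 327 lower, 1347 above and 5 below both ends. Ratios within slices of the score gave 6 lower. A 1.5-fold limit gave 13 higher and 76 lower, and 28 above both ends, and 7 genes were 1.25-fold above both neighbouring classes. Without members with 3 or more UMIs of Dbp and Per3, 0 were higher and 1 lower, but leaving out the cells highest in Dbp lowers its ratio by construction, so this is no check of that call. The 3 alternatives that follow were chosen after seeing the data. Members of at least 20000 UMIs gave 0 lower, 20 above both ends, shares of 13.7% and 8.61% and tdTomato 3.42. Members with other-cell markers at most 500 CPM gave 20 above both ends, 22.5%, 8.49% and 3.12. Both limits together gave 1 lower, 17 above both ends, 13.6%, 8.39% and 3.45.

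Depth limits genes of few UMIs, such as Cdkn2a with 41 and 9 UMIs, and 1 library per group leaves the spread between mice unknown. The window is set by counts of 8 genes, and scores from cells thinned to 5000 UMIs gave shares of 26.9% and 9.99%.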
